A study of Rattus norvegicus with 11 samples.

Results

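The genes of adenosine signalling and adenosine clearance were compared in rat hippocampus between a ketogenic diet, rich in fat and low in carbohydrate, and a control diet. They were chosen by gene symbol: every probe set whose single platform symbol was Adora1, Adora2a, Adora2b, Adora3, Adk, Ada, Nt5e, Slc29a1 or Slc29a2. The rule found 8 of these 9 genes, on 12 of the 15923 probe sets of the array, and 4 of the genes had 2 probe sets each. The only probe set annotated to Adora3 lists 2 gene identifiers under that one symbol, so it stands outside the rule and is described apart. The study measured total RNA on 11 arrays, 5 from rats on the ketogenic diet and 6 from rats on the control diet, and its labels name the ketogenic diet as one that prevents epileptic seizures. The sources used here give neither strain, sex and age of the rats nor what the diets held and how long they lasted. Whether each sample came from its own rat is not stated either, and a p-value then measures sample-to-sample spread, which may be technical.

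Adenosine is a purine nucleoside that quiets neurons in the hippocampus. It forms outside cells when ATP is broken down, and the ecto-5′-nucleotidase encoded by Nt5e carries out the last step, from AMP. Receptors of the A1 type (Adora1) and A3 type (Adora3) couple to inhibitory G proteins, while those of the A2 type (Adora2a and Adora2b) raise cyclic AMP. Equilibrative transporters (Slc29a1 and Slc29a2) let adenosine cross the membrane down its gradient, and inside the cell adenosine kinase (Adk) turns it back into AMP while adenosine deaminase (Ada) turns it into inosine.

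These genes were found to differ between the diets about as often as genes at large. A gene not found to differ is not thereby shown to be unchanged. Of the 12 probe sets 9 were bright enough to be tested, and 2 of the 9 were called, which here means an adjusted p under 0.05 over all tested probe sets. Both were lower on the ketogenic diet: 1 probe set of Adora1 and 1 of Slc29a2. The background, over the 11899 probe sets tested, was 16.5% called, with 8.62% higher and 7.87% lower, and 2 of 9 stands close to it. Of the called probe sets 52.3% were higher, and 38.3% on the values as deposited, where both member calls also stood. With each gene represented by its brightest tested probe set, 6 member genes were tested and 1, Slc29a2, was called, against 16.9% of 8397 genes, 8.85% higher and 8.04% lower. On the normalized scale the diets overlapped at all 9 tested probe sets, where 6.99% of tested probe sets showed no overlap. The median log2 fold change (ketogenic minus control throughout) was -0.085 over the 6 genes and -0.0032 over the 8397. Adk, the main route of adenosine removal in brain, had the narrowest interval of the members and a log2 fold change near 0. Levels are log2 signals after quantile normalization, and the level of one probe set cannot be set against that of another. Where a gene has 2 probe sets they are called the brighter and the dimmer by their mean signal, and the plots give their identifiers.

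**Figure D1:**
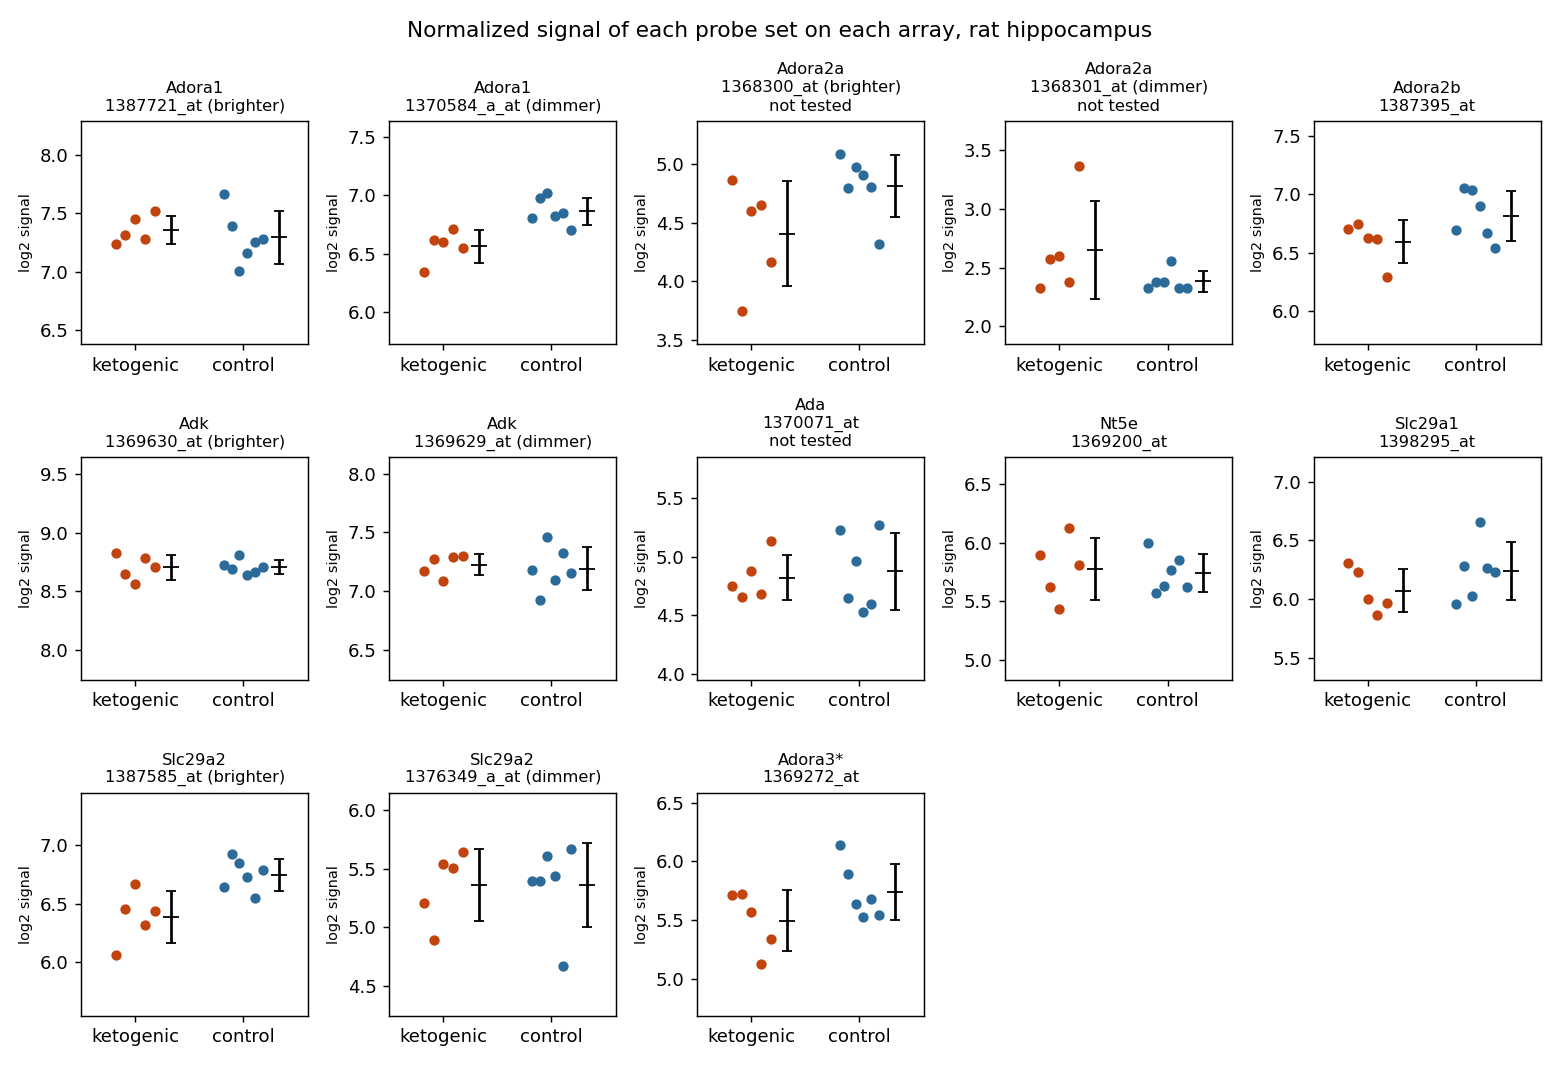
Normalized log2 signal on each array (y axis, all panels of equal span) for the ketogenic (n = 5, left) and control diet (n = 6, right), with the mean and SD as a bar beside the points; the asterisk marks the probe set listed under 2 gene identifiers. The ketogenic points of the dimmer Adora1 and the brighter Slc29a2 probe set lie low with 1 array of each inside the control range, while those of the brighter Adk probe set lie at the control level.

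The whole arrays differed between the diets too. Ketogenic replicate 3 stood apart on the first principal component (34.5% of the variance), at -2.82, while the remaining ketogenic arrays lay at 18.6 to 25.7 and the control arrays at -17.3 to -10.6. A sign of RNA quality, the 3 prime signal of a transcript over its 5 prime signal, was higher on the ketogenic diet by 0.20 (log2) for Gapdh (exact permutation test, two-sided, p = 0.00649) and by 0.19 for actin (exact p = 0.00216, the smallest that 5 against 6 samples allow). On the values as deposited, before quantile normalization, the arrays' median log2 signal was lower on the ketogenic diet (difference -0.14, exact p = 0.00216). Hybridisation spike-ins were higher by 0.30 (exact p = 0.00649), with adjusted p between 0.00433 and 0.00649 over these 4 measures. The deposited values already had nearly the same trimmed mean on every array, 150.02 to 150.03. Both of these differences are therefore relative to that mean. No label gave a batch or scan date, so a batch and the diet cannot be told apart. The title of ketogenic replicate 3 ends in s2b and those of all other arrays in s2. What these endings mean is not stated in the sources used here.

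Markers listed for hippocampal neurons were present, with 8 of 11 tested. Of these Camk2a and Fibcd1 rose, while 5 of the 8 had negative, uncalled differences with a list median of -0.029 (0.042 without quantile normalization and 0.075 with the arrays centred on their 75th percentile). Their summed normalized signal was 4872 to 5621 on the ketogenic and 3955 to 4778 on the control arrays, with Camk2a alone differing by 1.34 on the log2 scale. Red cell markers had 4 lower and 1 higher of 5, and their summed signal was 492 to 590 on the ketogenic and 1319 to 1790 on the control arrays. Of the 7 tested choroid plexus markers 3 fell, with summed signals of 543 to 899 on the ketogenic and 716 to 2193 on the control arrays. Vascular markers had 1 lower of 8 (summed signals of 950 to 1166 on the ketogenic and 1113 to 1244 on the control arrays), and markers of meninges and fibroblasts 1 lower of 8 (1011 to 2543 on the ketogenic and 1388 to 3733 on the control arrays). Astrocyte markers had 2 lower of 10, microglial markers 2 of 8 and oligodendrocyte markers 2 of 8, with 0 higher in each. Over all 8397 genes 8.04% were called lower and 8.85% higher, and no list was tested against these shares. These counts moved with the setting, as did the count over all 11899 tested probe sets, 1962 as reported. On the values as deposited 4 vascular, 4 meningeal and 5 choroid plexus markers were lower, and with the arrays centred on their 75th percentile 2, 3 and 5, with 0 astrocyte markers lower and 1 higher. In these settings 2812 (38.3% of them higher) and 2728 probe sets were called over all. The choroid plexus list had 1 lower without ketogenic replicate 2 or 5 or control replicate 5, and 5 without control replicate 6. The oligodendrocyte list had 0 lower without ketogenic replicate 2 or 4 and 4 without ketogenic replicate 3, and the microglial list 0 without ketogenic replicate 4 and 3 without control replicate 6. Over all tested probe sets 841, 3163, 797 and 1244 were called without ketogenic replicates 2 to 5. Without control replicates 5 and 6 the counts were 1259 and 1945. No marker list had a gene at the floor on all arrays. In bulk tissue, fewer cells of a type and less RNA per cell cannot be told apart.

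Adora1 encodes the A1 receptor, the main inhibitory adenosine receptor of hippocampal neurons, and its 2 probe sets gave different results. The dimmer one, of a kind designed to match several transcript forms of a gene, had log2 signals of 6.34, 6.61, 6.60, 6.71 and 6.55 in ketogenic replicates 1 to 5. The control arrays lay between 6.70 and 7.02 with a median of 6.83. All 5 ketogenic arrays were below the control median and 4 were below every control, with replicate 4 just inside the control range. The means were 6.56 ± 0.14 (SD, n = 5) on the ketogenic and 6.86 ± 0.12 (SD, n = 6) on the control diet, a log2 fold change of -0.30 (SE 0.09, limma adjusted p = 0.0410), or a 1.23-fold lower signal. On the deposited linear scale the groups did not overlap, at 78.3 to 96.6 on the ketogenic and 104.6 to 133.8 on the control arrays, as for 8.82% of tested probe sets. The array medians on that scale were also lower on the ketogenic diet, and their part in this gap was not tested.

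The brighter Adora1 probe set, which represented the gene, had log2 signals of 7.23, 7.31, 7.45, 7.28 and 7.51 on the ketogenic arrays. The controls spanned 7.003 to 7.66 with a median of 7.27, so every ketogenic value lay within the control range. Its log2 fold change was 0.07 (SE 0.11, limma adjusted p = 0.699), with a 95% interval of -0.16 to 0.29. Within each array, the dimmer minus the brighter probe set averaged -0.80 ± 0.16 (SD, n = 5) on the ketogenic and -0.43 ± 0.29 (SD, n = 6) on the control diet. That difference, tested after its values had been seen, had an exact two-sided permutation p of 0.0325, and 0.101 after adjustment over the 4 genes with 2 probe sets. Across the 11 arrays the 2 probe sets had a Pearson correlation of -0.25, and -0.16 with the mean of each diet taken off. Averaged over both probe sets, the Adora1 log2 fold change was -0.12 (limma adjusted p = 0.314).

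The call on the dimmer Adora1 probe set lay close to the threshold. It was lost without ketogenic replicate 1, 2, 4 or 5 (adjusted p = 0.0924, 0.0702, 0.0528 and 0.0746 with limma) and without control replicate 1, 2, 3, 4 or 5 (adjusted p = 0.0517, 0.0829, 0.0871, 0.0613 and 0.0660), while the log2 fold change stayed between -0.33 and -0.24. Without ketogenic replicate 3 it was -0.31 and still called. A fit that held the 3 prime to 5 prime ratios of Gapdh and actin as covariates gave -0.10 (limma adjusted p = 0.967). The actin ratio itself parted the diets, at 0.755 to 0.985 on the ketogenic and 0.487 to 0.750 on the control arrays. Fits with these covariates, here and below, therefore cannot tell the diet apart from RNA quality, and a call lost in them decides nothing. A fit that held the spike-ins gave -0.33 (adjusted p = 0.157). The spike-in level also went with the diet, at 8.51 to 8.91 on the ketogenic and 8.24 to 8.54 on the control arrays. A call lost with that covariate, here and below, decides nothing either.

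**Figure D2:**
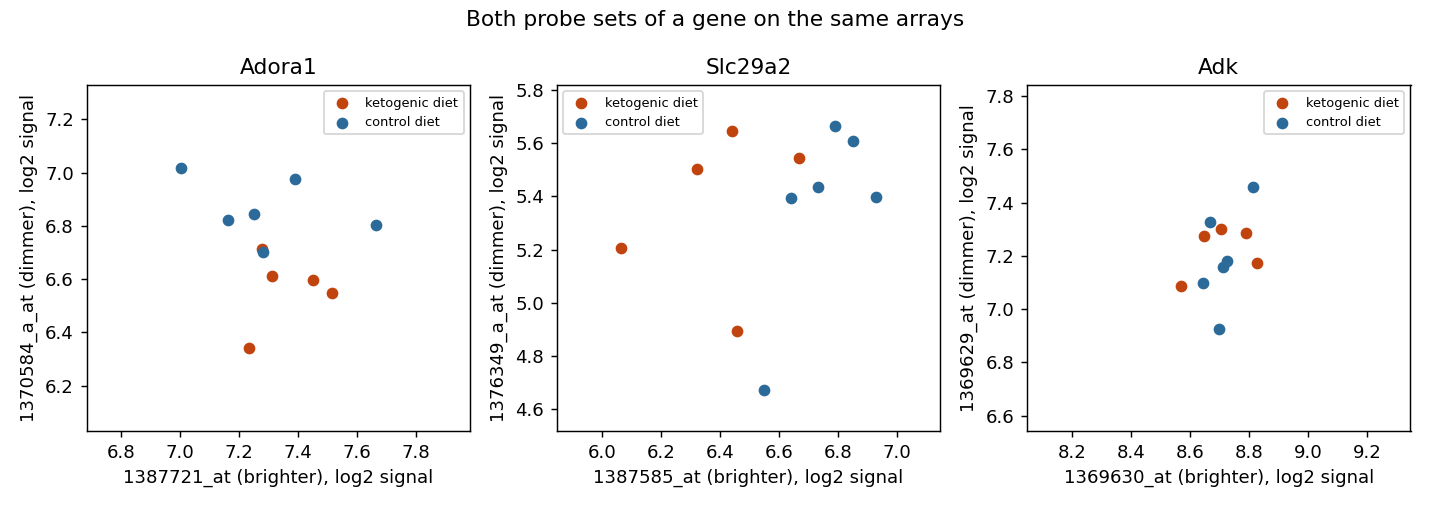
Log2 signals of the brighter (x axis) and the dimmer probe set (y axis) of Adora1, Slc29a2 and Adk on the same 11 arrays, 1 point per array, ketogenic (red) and control (blue), with axes of equal span. For Adora1 the diets part along the dimmer probe set and for Slc29a2 along the brighter one, with 1 ketogenic array of each inside the control range, while for Adk they mix along both.

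Adora2a, the gene of an A2-type receptor, was dim in this tissue and neither of its probe sets reached the testing level, a mean log2 signal of 5.17. The brighter had 4.86, 3.75, 4.60, 4.66 and 4.16 on the ketogenic arrays and 4.32 to 5.08 with a median of 4.86 on the control arrays. Of the ketogenic arrays 2 were below all controls and the others overlapped them. With no filter on dim probe sets its log2 fold change was -0.41 (95% interval -0.88 to 0.06, limma adjusted p = 0.233). The dimmer sat at the lowest level allowed, a signal of 5.02, on 1 ketogenic and 3 control arrays, so its values carry no order. Striatal markers, given because Adora2a is best known from striatum, had 1 higher (Rasd2) and 1 lower (Drd2) of 7, with summed signals of 996 to 1348 on the ketogenic and 1021 to 1259 on the control arrays. Over all 8397 genes 8.85% were called higher and 8.04% lower. The dimmer Adora2a probe set read 3.37 on ketogenic replicate 5 and 2.60 or less on every other array.

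Adora2b, the gene of the other A2-type receptor, had log2 signals of 6.71, 6.75, 6.62, 6.61 and 6.29 on the ketogenic arrays. The control arrays lay between 6.54 and 7.05 with a median of 6.80. All 5 ketogenic arrays were below the control median, but the ranges overlapped and the difference was not called (-0.22, SE 0.12, limma adjusted p = 0.203, 95% interval -0.47 to 0.03). On the values as deposited it was -0.34 (adjusted p = 0.0534), where the median over all tested probe sets was -0.060.

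The probe set listed under Adora3 read 5.72, 5.72, 5.57, 5.13 and 5.34 on the ketogenic arrays and 5.52 to 6.14 with a median of 5.66 on the control arrays. Its log2 fold change was -0.24 (limma adjusted p = 0.299), with a 95% interval of -0.58 to 0.10, and the groups overlapped.

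Nt5e, whose product makes adenosine outside cells, had log2 signals of 5.90, 5.62, 5.43, 6.13 and 5.81 on the ketogenic arrays and 5.58 to 5.997 with a median of 5.70 on the control arrays. Ketogenic replicate 4 was above and replicate 3 below every control. The log2 fold change was 0.04 (SE 0.14, limma adjusted p = 0.873), with an interval of -0.27 to 0.34. Its sign was negative on the values as deposited (-0.16), with the arrays centred on their 75th percentile (-0.12), with the 3 prime to 5 prime covariates (-0.03) and without ketogenic replicate 4 (-0.05), and the gene was called in none of these.

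Of the transporters, Slc29a2, which encodes the equilibrative transporter ENT2, was lower on the ketogenic diet by its brighter probe set. It read 6.06, 6.46, 6.67, 6.32 and 6.44 on the ketogenic arrays and 6.55 to 6.93 with a median of 6.76 on the control arrays. Every ketogenic value was below the control median, and replicate 3, the array that stood apart, was the only one inside the control range. The means were 6.39 ± 0.22 (SD, n = 5) on the ketogenic and 6.75 ± 0.14 (SD, n = 6) on the control diet, a log2 fold change of -0.36 (SE 0.11, limma adjusted p = 0.0420), a 1.28-fold lower signal. Without ketogenic replicate 3 it was -0.43 and still called. In deposited signals the means were 80.2 ± 13.6 (SD, n = 5) on the ketogenic and 111.5 ± 10.4 (SD, n = 6) on the control diet.

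The dimmer Slc29a2 probe set read 5.21, 4.89, 5.54, 5.50 and 5.65 on the ketogenic arrays and 4.67 to 5.66 with a median of 5.42 on the control arrays. Its log2 fold change was -0.0042 (limma adjusted p = 0.991), with an interval of -0.43 to 0.42 that holds the value of the brighter probe set as well as 0. It lay near the testing level of 5.17, and the dimmer minus the brighter probe set differed between the diets by 0.35 (exact permutation p = 0.0758, adjusted 0.101). Averaged over both probe sets, Slc29a2 had a log2 fold change of -0.18 (limma adjusted p = 0.372).

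The call on the brighter Slc29a2 probe set was also close to the threshold. It was lost without ketogenic replicate 1, 2, 4 or 5 (limma adjusted p = 0.0942, 0.0703, 0.0964 and 0.0654) and without control replicate 2, 3, 4 or 6 (adjusted p = 0.0862, 0.0822, 0.0649 and 0.0597), with log2 fold changes from -0.43 to -0.28 over all 11 fits. With the 3 prime to 5 prime covariates it was -0.19 (limma adjusted p = 0.938), with the spike-in covariate -0.52 (adjusted p = 0.0624), and with no filter on dim probe sets -0.36 (adjusted p = 0.0617).

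**Figure D3:**
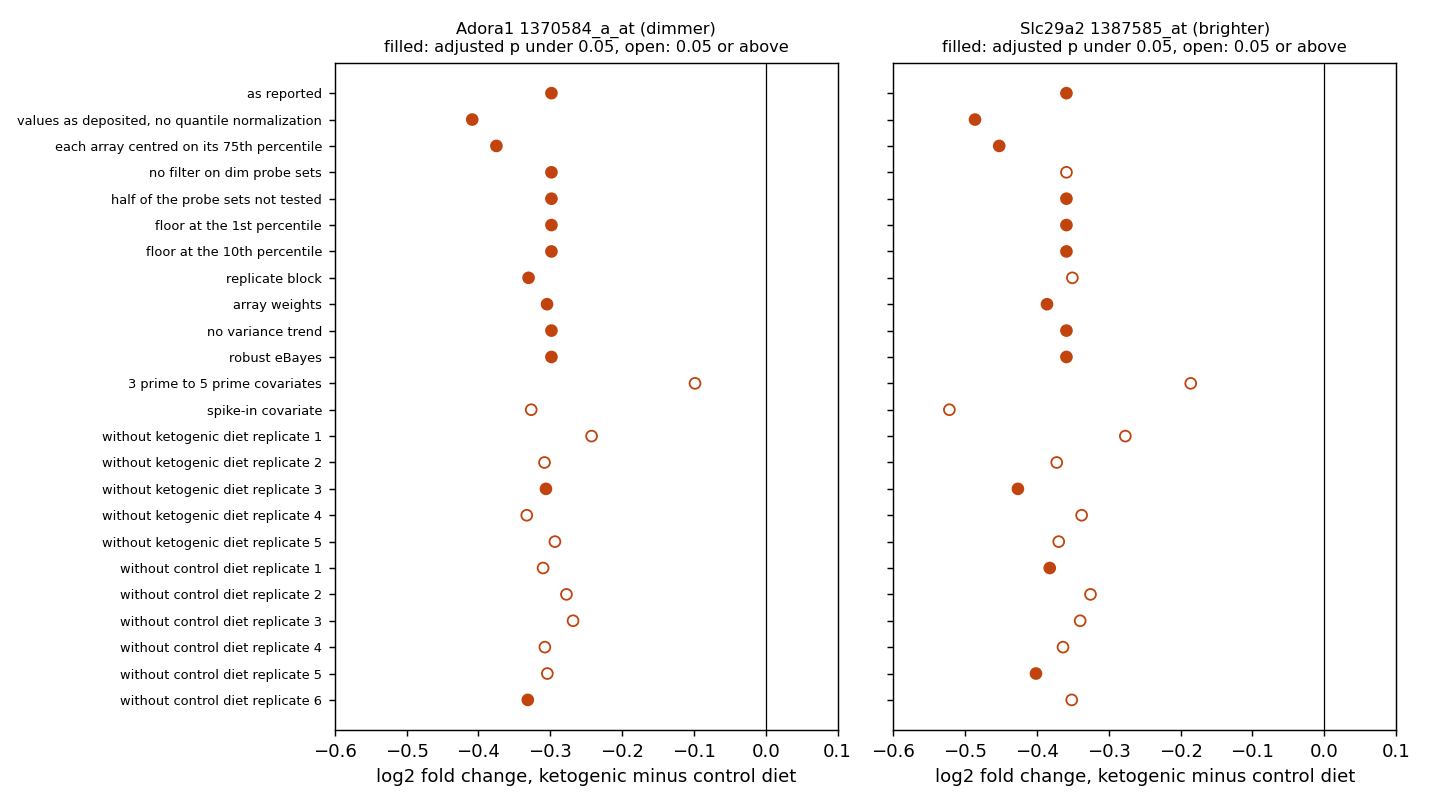
Log2 fold change, ketogenic minus control diet (x axis), of the dimmer Adora1 (left) and the brighter Slc29a2 probe set (right) as reported and under each alternative setting (rows), filled where the adjusted p was under 0.05. Every point is below 0, from -0.41 to -0.10 for Adora1 and from -0.52 to -0.19 for Slc29a2, and 9 and 8 of the 11 fits with 1 array left out are open.

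Slc29a1 encodes ENT1, the transporter through which most adenosine crosses brain cell membranes and which human red cells also carry. It read 6.30, 6.23, 6.001, 5.86 and 5.97 on the ketogenic arrays and 5.96 to 6.66 with a median of 6.25 on the control arrays. The ranges overlapped, with a log2 fold change of -0.17 (SE 0.13, limma adjusted p = 0.404) and an interval of -0.45 to 0.12. On the values as deposited it was -0.35 (adjusted p = 0.0785). Of the 5 red cell markers 4 fell and 1 rose on the same arrays, and their part in this value was not tested.

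Adk encodes adenosine kinase, which in adult brain is found mainly in astrocytes and sets the level of adenosine around neurons. Its brighter probe set read 8.82, 8.65, 8.57, 8.79 and 8.70 on the ketogenic arrays and 8.64 to 8.81 with a median of 8.70 on the control arrays. The ketogenic arrays spread on both sides of the controls, with replicate 1 above and replicate 3 below all of them. The means were 8.71 ± 0.10 (SD, n = 5) on the ketogenic and 8.71 ± 0.06 (SD, n = 6) on the control diet. The log2 fold change was -0.0032 (SE 0.06, limma adjusted p = 0.978), and its 95% interval of -0.14 to 0.13 leaves out a change as large as that of either called probe set.

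The dimmer Adk probe set read 7.17, 7.28, 7.09, 7.29 and 7.30 on the ketogenic arrays and 6.92 to 7.46 with a median of 7.17 on the control arrays. Its log2 fold change was 0.03 (SE 0.09, limma adjusted p = 0.834), with an interval of -0.17 to 0.24. Adk was called by neither probe set under any alternative, and the sign of these near-zero values turned under some of them. Astrocyte markers had summed signals of 9861 to 11216 on the ketogenic and 10565 to 11242 on the control arrays.

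Ada, for adenosine deaminase, was dim and not tested. It read 4.75, 4.66, 4.88, 4.68 and 5.13 on the ketogenic arrays and 4.53 to 5.27 with a median of 4.81 on the control arrays, with full overlap. With no filter its log2 fold change was -0.05 (95% interval -0.43 to 0.32, limma adjusted p = 0.875).

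**Figure D4:**
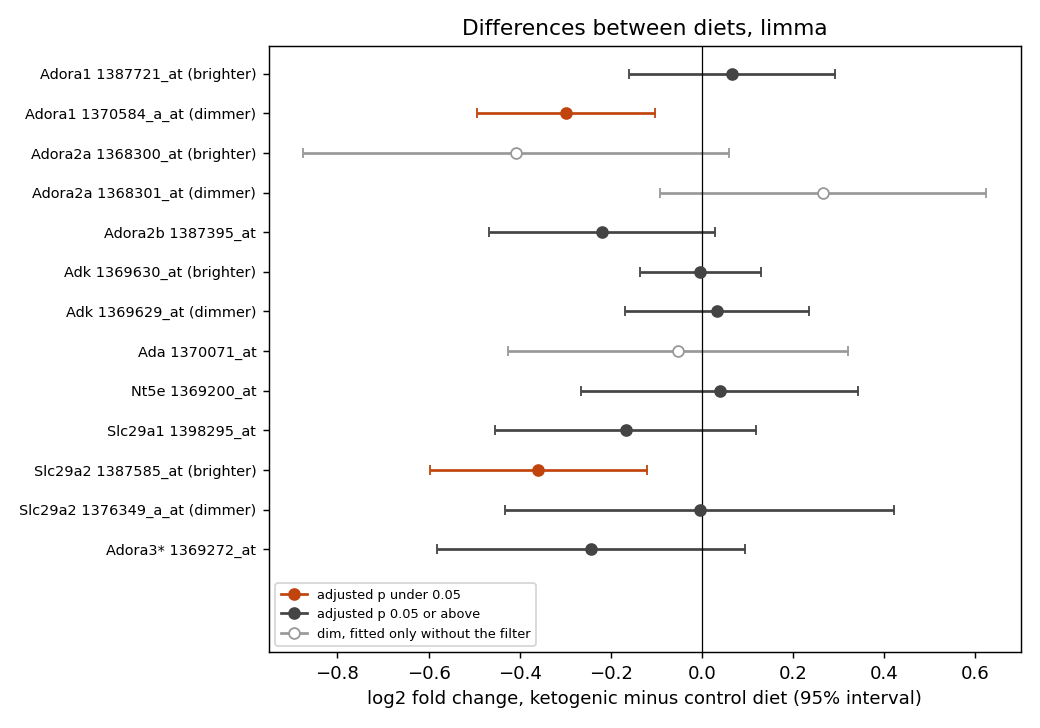
Log2 fold change, ketogenic minus control diet, with its 95% interval (x axis) for each probe set of the adenosine genes (rows); red marks an adjusted p under 0.05, open grey marks dim probe sets fitted only without the filter, and the asterisk the probe set with 2 gene identifiers. The intervals of the dimmer Adora1 and the brighter Slc29a2 probe set lie below 0 and all others hold 0.

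Around these genes, 5 lists were described by their counts beside the 16.9% of all genes called. Enzymes that break down ATP and AMP had 0 called of 7 tested, out of 18 listed (median log2 fold change -0.078). Entpd1, Enpp1, Alpl, Acp3, Nt5c, Nt5c2 and Nt5m were too dim to test. Entpd3, Entpd8, Nt5c1a and Nt5c1b had no probe set, so the count covers only part of this route. The gene with the smallest p was Nt5c3b, a cytosolic nucleotidase gene (-0.27, limma adjusted p = 0.113). Further nucleoside transporters and enzymes of purine salvage and breakdown had 0 called of 14 tested, out of 18 listed (median 0.017). The smallest p was that of Adsl, the adenylosuccinate lyase gene (0.23, limma adjusted p = 0.0892). The methylation cycle, which releases adenosine when S-adenosylhomocysteine is split, had 0 called of 5 tested, out of 9 listed (median -0.044). The smallest p was that of Ahcyl1 (-0.13, limma adjusted p = 0.130). Without ketogenic replicate 3 the ATP and AMP list had 1 lower and the salvage list 2 higher. On the values as deposited, and with the arrays centred on their 75th percentile, the ATP and AMP list had 1 lower. Over all 11899 tested probe sets 3163, 2812 and 2728 were called in these settings, against 1962 as reported. Of 23 alternative fits, Nt5c3b was called in 5 and Adsl in 2.

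Receptors for ATP and other nucleotides, with ATP release genes, had 2 genes lower and 0 higher of 8 tested, out of 19 listed (median -0.049). Of the release genes Panx1, Panx2, Panx3 and Slc17a9 had no probe set. On the values as deposited the list had 1 higher and 3 lower (median -0.19). With the arrays centred on their 75th percentile it also had 1 higher and 3 lower (median -0.15). Over all 11899 tested probe sets 2812 and 2728 were called in these settings, against 1962 as reported. P2rx3, an ATP-gated channel best known from sensory neurons, averaged 6.18 ± 0.36 (SD, n = 5) on the ketogenic and 6.90 ± 0.23 (SD, n = 6) on the control diet, without overlap. It fell by 0.72 on the log2 scale (SE 0.16, limma adjusted p = 0.0106), and its other probe set fell by 0.63 (adjusted p = 0.0432). P2ry6, a nucleotide receptor of microglia, fell by 0.53 (limma adjusted p = 0.0291), with ketogenic arrays at 6.18 to 7.002 and control arrays at 6.65 to 7.30. The P2rx3 call held in all 11 fits with 1 array left out, whereas that of P2ry6 was lost without ketogenic replicate 1, 2, 4 or 5 (limma adjusted p = 0.0655, 0.0780, 0.0706 and 0.0519) or control replicate 1, 2 or 5 (0.0521, 0.0619 and 0.0560). With the 3 prime to 5 prime covariates P2rx3 was at -0.33 and P2ry6 at 0.07, and neither was called. Nor was either called with the spike-in covariate (limma adjusted p = 0.0931 and 0.0615). With no filter on dim probe sets P2ry6 lost its call (limma adjusted p = 0.0631) and P2rx3 kept it (0.0318). Microglial markers had summed signals of 922 to 1094 on the ketogenic and 978 to 1182 on the control arrays. The nucleotide receptor list had 3 lower without ketogenic replicate 3, where 3163 probe sets were called over all. It had 1 lower without any other ketogenic array or without control replicate 1, 2 or 5. In those fits 797 to 1722 probe sets were called over all.

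The list of G proteins and effectors drawn up for adenosine receptors had 2 genes higher and 2 lower of 22 tested, out of 28 listed (median -0.088). It also held Rgs4, Rgs9 and Rgs14, genes of G protein regulators. Whether each listed gene acts with adenosine receptors in this tissue was not tested. A1 receptors open potassium channels through G proteins. Of the subunit genes of these channels, Kcnj9 was called lower and Kcnj6 higher by the brightest tested probe set of each. Kcnj9, the GIRK3 subunit, averaged 5.79 ± 0.24 (SD, n = 5) on the ketogenic and 6.42 ± 0.23 (SD, n = 6) on the control diet, without overlap, and fell by 0.63 (SE 0.14, limma adjusted p = 0.0108). Kcnj6, the GIRK2 subunit, averaged 8.37 ± 0.24 (SD, n = 5) on the ketogenic and 7.97 ± 0.12 (SD, n = 6) on the control diet and rose by 0.40 (SE 0.10, limma adjusted p = 0.0198). Of the 3 other tested Kcnj6 probe sets 0 were called, at 0.24, -0.15 and -0.31. Kcnj3, the GIRK1 subunit, was at -0.0019 (limma adjusted p = 0.991) by its brightest probe set, and its others were at 0.0025 and -0.58, not called. A dimmer probe set was called for 2 more genes of the list whose representative was not: Gnas, the stimulatory alpha subunit gene, at 0.39 (limma adjusted p = 0.00875, representative 0.09), and Adcy6, an adenylyl cyclase gene, at -0.34 (adjusted p = 0.0449, representative -0.02).

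Gnai2, an inhibitory G protein alpha subunit gene, fell by 0.31 (limma adjusted p = 0.0345), and Gnb5, a beta subunit gene, rose by 0.30 (adjusted p = 0.0287), with overlapping groups for both. The Kcnj9 call held in all 11 fits with 1 array left out, and the Kcnj6 call in 10, failing without ketogenic replicate 4 (limma adjusted p = 0.0600). That of Gnai2 was lost without ketogenic replicate 1, 2 or 4 (0.0819, 0.0624 and 0.0796) or control replicate 1, 2, 4 or 5 (0.0501, 0.0739, 0.0664 and 0.0626). The Gnb5 call was lost without ketogenic replicate 2, 4 or 5 (0.0662, 0.0820 and 0.0700) or control replicate 2, 3 or 4 (0.0569, 0.0600 and 0.0521). Without ketogenic replicate 3 the list had 2 higher and 6 lower, where 3163 of all 11899 tested probe sets were called. It had 1 higher and 1 lower without ketogenic replicate 2 or control replicate 2 or 4 (841, 1174 and 1360 called over all). Without ketogenic replicate 4 it had 0 higher and 1 lower (797 called over all). Centred on the 75th percentile it had 5 higher and 3 lower (2728 called over all, against 1962 as reported). With the 3 prime to 5 prime covariates 0 of these 4 genes were called, Kcnj9 at -0.30, Kcnj6 at 0.24, Gnai2 at -0.21 and Gnb5 at 0.17. Of the 4, Gnai2 also lost its call with the spike-in covariate (limma adjusted p = 0.230), with no variance trend (0.0528) and with no filter on dim probe sets (0.0571).

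**Figure D5:**
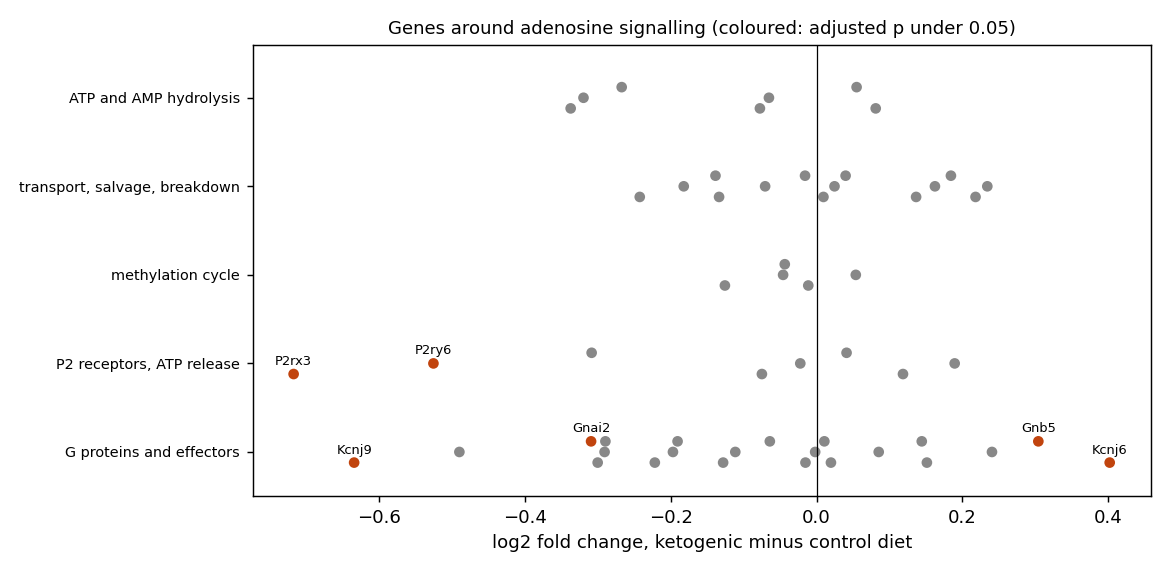
Log2 fold change, ketogenic minus control diet (x axis), of each tested gene in the 5 lists around adenosine signalling (rows, shifted up and down for clarity); coloured and named points have an adjusted p under 0.05. The 3 metabolic lists hold none, and Kcnj9 at -0.63 and Kcnj6 at 0.40 lie at opposite ends of the last row.

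The genes most like a member across the 11 arrays were sought among 8396 others after the mean of each diet was taken off. The search is a description of arrays that share tissue and processing. The highest of so many correlations are high by selection, and the level that chance would reach was not tested. Spearman values and those on fewer arrays are of the same chosen pairs and give them no support. For the brighter Adora1 probe set they were Trmt5 (Pearson r 0.94, Spearman rho 0.96) and Neu2 (r 0.91, rho 0.81). Between the diets both were called lower, Trmt5 at -0.26 and Neu2 at -0.42 (limma adjusted p = 0.0481 and 0.0123), unlike this Adora1 probe set. Leaving out the 2 arrays farthest from the Adora1 median gave 0.87 and 0.70. For the brighter Adk probe set they were Fem1c (r 0.88, rho 0.84) and Mgmt (r 0.86, rho 0.67), and 0.86 and 0.67 on the remaining 9 arrays. Neither Fem1c nor Mgmt was called between the diets (limma adjusted p = 0.877 and 0.636). Adora2a had no tested probe set and was not matched.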

How the data were processed

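Hippocampal RNA was measured on 11 arrays. Each deposited value is a probe set's intensity on a linear scale, and how the authors made them is not given in the sources used here. Their mean after trimming 2% at each end was 150.02 to 150.03 on every array. Arrays were quantile normalized, values below the 5th percentile (a signal of 5.02) were set to it, and log2 was taken. The 57 control probe sets and the 25% of the others with the lowest mean were not tested, which left 11899. The diets were compared with limma 3.58.1 in R 4.3.3 (lmFit, eBayes with a variance trend, two-sided) and Benjamini-Hochberg adjustment over all of them, at a threshold of 0.05. Symbols came from the platform annotation, updated by gene identifier with a RefSeq table of GRCr8 (12754 of 12789 single-symbol probe sets matched, 312 have several symbols, 2771 none). A gene was represented by its brightest tested probe set.

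Samples were grouped by their titles. The same replicate numbers occur in both diets, but same-numbered arrays did not deviate together (r 0.0089 to 0.077 over 5 pairs), so they were not treated as pairs. Members and lists were chosen with earlier results of these data known. The text names all member probe sets, up to 4 called genes of each list or else the 1 with the smallest p, and the 2 genes most like Adora1 and Adk (the rule included Adora2a, which had no tested probe set). Kcnj3, Gnas, Adcy6, the further Kcnj6 and P2rx3 probe sets and the named neuron and striatal markers were added after their values were seen. In a simulation of the ketogenic against control comparison over 11899 probe sets, 61 of 100 changed by 0.5 on the log2 scale and 94 of 100 changed by 1 were called, and 13 of 168 calls were false. Far fewer probe sets were changed there than the 1962 called in the data, and both called member probe sets differed by less than 0.5. The simulated shares therefore do not carry over to them. Alternatives were other scalings, floors, filters and variance models, array weights, a replicate block, covariates, the mean over probe sets, exact tests and leaving out each array. The number of arrays limits the precision.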

Additional observations from a re-analysis of the deposited data

Results flagged for a closer look

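Among 52 groups of values checked, 5 held an array far from the rest of its group, where chance flags about 1 in 20 groups, or 2.6. The dimmer Adora2a probe set read 3.37 on ketogenic replicate 5, against 2.33 to 2.60 on the other ketogenic arrays, and 2.56 on control replicate 4, against 2.33 to 2.38 on the other controls, all near the floor. The dimmer Slc29a2 probe set read 4.67 on control replicate 5, against 5.39 to 5.66 on the other controls. Gnai2 read 8.03 on control replicate 3, against 8.34 to 8.50. The mean log2 level of 18 hybridisation spike-in probe sets was 8.91 on ketogenic replicate 3, against 8.51 to 8.62 on the other ketogenic arrays.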

How the results depend on the processing

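The count of called probe sets, 1962 as reported, was 3136 with array weights, 6 with the 3 prime to 5 prime covariates and 797 to 3163 with 1 array left out; it was 1199, 841, 3163, 797 and 1244 without ketogenic replicates 1 to 5 and 1174, 1250 and 1259 without control replicates 2, 3 and 5. On the values as deposited it was 2812, of which 38.3% were higher, against 52.3% as reported. The count of called member genes, 1 as reported (Slc29a2), was 0 with no filter, with the replicate block (its brighter probe set at -0.35, adjusted p = 0.0514), with either covariate set and in 8 of 11 fits with 1 array left out, so it ran from 0 to 1. With the replicate block 1816 probe sets were called, and the dimmer Adora1 probe set kept its call. Why the counts moved was not tested. With no filter 15866 probe sets were tested, and the variance trend was also refitted over all of them.

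Signs turned for the values below. P2ry6, called at -0.53 as reported, was at 0.070 with the 3 prime to 5 prime covariates, and Nt5c3b, uncalled at -0.27, was at 0.076; the others were uncalled. On the values as deposited the brighter Adk probe set was at 0.060, the dimmer Adk probe set at -0.031, Nt5e at -0.16 and Ahcyl1 at 0.0082, and centred on the 75th percentile the brighter Adk probe set was at 0.094, Nt5e at -0.12 and Ahcyl1 at 0.042. With array weights the brighter Adk probe set was at 0.013 and the dimmer Slc29a2 probe set at 0.0028, and that probe set at 0.056 with the replicate block. With the 3 prime to 5 prime covariates the dimmer Adk probe set was at -0.048 and Nt5e at -0.033, and with the spike-in covariate the brighter Adk probe set was at 0.076. Averaged over probe sets, Adk was at 0.015 and Adora1 at -0.12. With 1 array left out, the brighter Adk probe set ran from -0.032 to 0.032, the dimmer Adk probe set from -0.020 to 0.088, Nt5e from -0.048 to 0.12 and the dimmer Slc29a2 probe set from -0.14 to 0.11. The dimmer Adora1 and the brighter Slc29a2 probe set stayed negative in all 23 alternative fits and were called in 12 and 11 of them.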
